A study of Rattus norvegicus with 4 samples.

Results

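Complement is a set of plasma and cell-surface proteins that tags targets for removal and draws in immune cells. In the classical pathway C1q binds a target and the proteases C1r and C1s cut C4 and C2, while the alternative pathway builds its convertase from C3 and factor B. Both pathways meet at C3, and the membrane protein CD55 speeds the decay of their convertases. Liver makes most circulating complement, macrophages are a known source of C1q, and fibroblasts and other stromal cells make C1r, C1s, C3 and factor B.

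The 9 genes C3, C1qa, C1qb, C1qc, C1s, C1r, C2, Cfb and Cd55 were followed on 4 Agilent arrays of cultured testicular peritubular myoid cells. They were found by the gene name printed in the scanner files, with C1qc listed there under the older symbol C1qg and Cd55 under Daf1. They accounted for 12 of the 41012 probes. The members were chosen after C3 and the C1q chains had been seen to differ in opposite directions between arrays numbered 2 and arrays numbered 1, so that contrast is described here without a test.

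Peritubular myoid cells are the contractile cells around the seminiferous tubule. They came from the testes of male rats aged 40 days and were kept in culture medium with growth factors, which the labels do not name, for 4 days. The testosterone group (labels "Testosterone Treated" 1 and 2) had pulses of 1e-07 M testosterone, and the control group is labelled only as control (1 and 2). The labels used here do not give strain, number of animals, the controls' vehicle or the timing of the pulses, and the treatment text of the controls repeats that of the treated cells. Each group has 2 arrays, and the labels do not say whether equal numbers mark one culture, animal or day. A p-value here thus reflects nothing more than how far these 4 arrays spread, and that spread may be technical.

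Levels are log2 processed signals minus the 75th percentile of the same array (control spots left out), so 0 is the level of the 75th percentile and a step of 1 is a doubling. Levels are compared across arrays within a probe, and amounts of RNA are not compared between probes. Where signals are summed over a list, its brightest probes weigh most. All 12 probes were well above background on all 4 arrays. The C1r probe and the brighter of the 2 C1s probes were saturated on all 4 arrays, so no difference could be measured with them. The other 10 probes cover 8 of the 9 genes. On control replicate 1, 115 spots read at least 3 log2 units below the other arrays, all 115 of them in array columns 57 to 85. Of the 12 probes 4 lay in those columns, those of Cfb and Cd55, the second of C1qa and the saturated one of C1s. None of the 12 had such a dropped spot within 5 rows and 5 columns (0 in all).

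The label of the cells was checked against fixed smooth muscle markers. Of 12 such genes 10 were on the array and 8 were well above background on all arrays, among them Myl9, Des, Actg2 and Tagln. Tagln was dim on testosterone and control replicate 1, at -4.63 and -4.47. The lowest signals well above background on those arrays were -5.51 and -5.56. Cnn1, calponin, was well above background on 0 of 4 arrays, and Acta2 and Myh11 had 0 probes by name. Markers of other cells were also well above background on all 4 arrays. These were markers of macrophages (14 of 15 on the array), fibroblasts and mesothelium (9 of 10) and Leydig cells (5 of 6). Markers of Sertoli cells (6 of 8), endothelium (3 of 6) and germ cells (3 of 7) were among them too. In bulk RNA of this kind, fewer cells of a type and less RNA per cell cannot be told apart.

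C3, the protein on which every complement pathway converges, differed most between the array numbers. It stood at 3.49 on testosterone replicate 1 and 3.57 on control replicate 1, and at 7.14 on testosterone replicate 2 and 6.76 on control replicate 2. Both arrays numbered 2 lay far above both numbered 1, and within each number the treated and control arrays lay close together. Number 1 averaged 3.53 and number 2 averaged 6.95, a difference of 3.42, or 10.7-fold, against a within-number SD of 0.19. The within-number SD is that of the treated and control array sharing a number, pooled over both numbers, so it includes any treatment difference. Among treated cells alone the second array was 12.5-fold above the first, and among controls 9.13-fold. Of 25881 tested probes measured on all 4 arrays, 30 stood as high as C3 or higher on this difference, C3 itself included. The C3 probe is placed at 64513437 to 64513496 on the unplaced sequence (chrUn) of build rn4. It was not saturated on any array. On testosterone and control replicate 2 it lay near the saturated C1s probe, which read 7.42 and 7.16 there. Compression of the C3 signal on those arrays was not tested.

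Since C3 showed the widest span, its upstream sequence is given, the 250 bases before the gene's start in RefSeq, build GRCr8, chr9:2201340-2201589, minus strand. Capitals mark a match to TTGCNNAA, a simplified C/EBP motif, on either strand.
C3: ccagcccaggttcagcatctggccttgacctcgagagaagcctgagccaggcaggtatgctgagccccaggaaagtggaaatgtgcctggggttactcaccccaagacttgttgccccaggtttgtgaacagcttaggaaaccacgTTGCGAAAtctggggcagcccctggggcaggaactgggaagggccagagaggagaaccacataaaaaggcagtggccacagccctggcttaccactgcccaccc
That match starts 104 bases before the gene's start, and 9.22% of 33469 rat promoters of the same length hold the motif. No match to AGAACA, a half-site of the androgen and glucocorticoid receptors, to an NF-kB motif or to TATAAA lay in these 250 bases. Those motifs are held by 17.5%, 1.30% and 12.9% of all promoters.

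**Figure D1:**
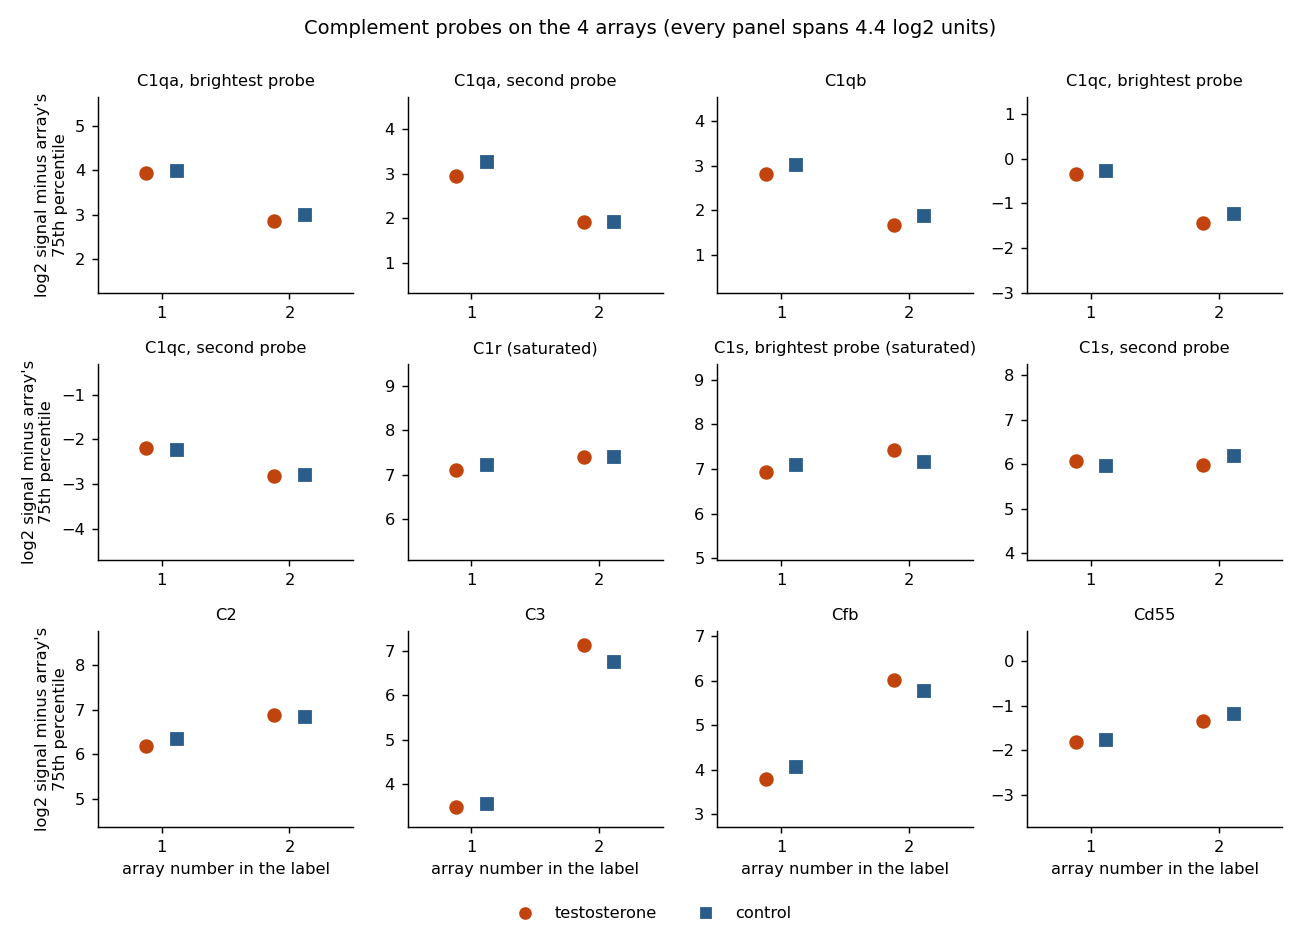
Log2 signal minus the array's 75th percentile (vertical axis, a span of 4.4 units in each panel) for the 12 complement probes on arrays numbered 1 and 2 (horizontal axis). Circles are testosterone and squares control, 1 point per array with no error bar; C3 and Cfb step up from number 1 to number 2 and the C1q chains step down, with the treated and control points close together within each number.

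Cfb, factor B, supplies the protease of the alternative pathway convertase and showed the next widest span. Its levels were 3.79 and 4.05 on testosterone and control replicate 1, and 6.02 and 5.77 on replicate 2. The arrays numbered 2 again lay above those numbered 1, by 1.98 (3.93-fold) with a within-number SD of 0.18. The treated pair differed 4.70-fold and the control pair 3.29-fold. The Cfb probe lies on chromosome 20 between 4076976 and 4077119 of rn4, in the array's last column, 85.

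C2, the classical pathway counterpart and chromosomal neighbour of Cfb, differed far less. It read 6.20 and 6.35 on testosterone and control replicate 1 and 6.88 and 6.83 on replicate 2. The numbers did not overlap and were 0.58 apart (1.49-fold, within-number SD 0.08; chromosome 20, 4071504 to 4071563). Scaling to the array median gave 0.38, and normexp background correction with quantile normalization gave 0.30.

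The 3 C1q chains, which assemble into the recognition molecule of the classical pathway, lay lower on the arrays numbered 2. C1qa read 3.93 and 3.97 on testosterone and control replicate 1 and 2.85 and 2.99 on replicate 2. C1qb read 2.81 and 3.03 on replicate 1 and 1.66 and 1.86 on replicate 2. C1qc read -0.33 and -0.27 on replicate 1 and -1.44 and -1.23 on replicate 2. In every chain both arrays numbered 1 lay above both numbered 2, opposite to C3 and Cfb. The differences were -1.03, -1.15 and -1.04 for C1qa, C1qb and C1qc, so the level on number 1 was 2.04-fold, 2.22-fold and 2.05-fold that on number 2. Within-number SDs were 0.07, 0.15 and 0.11.

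The second probes ran the same way. That of C1qa gave 2.96 and 3.27 on replicate 1 and 1.91 and 1.92 on replicate 2, a difference of -1.20. That of C1qc was dimmer, at -2.18 and -2.24 on replicate 1 and -2.81 on both arrays of replicate 2, and its difference of -0.60 was smaller than that of the brighter probe. The brightest probes lie on chromosome 5 of rn4, C1qb at 155647536 to 155647595, C1qc at 155656638 to 155656697 and C1qa at 155662578 to 155662637, in 1 gene cluster.

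Because the C1q chains moved side by side, the upstream sequences found for them in RefSeq (build GRCr8) are shown, C1qa at chr5:154419934-154420183 and C1qb at chr5:154407828-154408077, both on the minus strand. Capitals mark TTCNNNGAA, a STAT motif, in C1qa and GAGGAA, the core of the PU.1 motif, in C1qb, each searched on both strands.
C1qa: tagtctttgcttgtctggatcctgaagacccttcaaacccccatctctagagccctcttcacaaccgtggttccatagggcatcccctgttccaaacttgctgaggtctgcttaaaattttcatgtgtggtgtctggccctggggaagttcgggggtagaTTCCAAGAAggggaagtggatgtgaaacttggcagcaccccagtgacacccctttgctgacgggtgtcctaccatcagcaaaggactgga
C1qb: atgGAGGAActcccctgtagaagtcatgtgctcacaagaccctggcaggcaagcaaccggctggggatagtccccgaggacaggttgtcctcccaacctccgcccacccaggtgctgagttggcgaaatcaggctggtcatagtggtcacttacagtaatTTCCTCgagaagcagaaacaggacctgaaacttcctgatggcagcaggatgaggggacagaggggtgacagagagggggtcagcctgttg
C1qb held 2 PU.1 cores, 247 and 90 bases before its start, and C1qa held none. The C1qa STAT match begins 90 bases before its start. Of all promoters 23.3% hold GAGGAA and 7.67% hold TTCNNNGAA, and neither of these sequences holds the half-site AGAACA. In C1r, not printed, a PU.1 core lay 55 and a C/EBP match 83 bases before the start, and Cd55 held none of the motifs. Of the 9 members 5 had an entry, and C1qc, C1s, C2 and Cfb did not.

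C1s and C1r, the proteases of the C1 complex, were bright on every array. The unsaturated C1s probe (chromosome 4, 160737164 to 160737223) read 6.06 and 5.96 on testosterone and control replicate 1 and 5.97 and 6.18 on replicate 2. Here the numbers overlapped, and the difference of 0.06 was below the within-number SD of 0.11 and became -0.14 with median scaling and -0.12 with normexp and quantile normalization. The saturated probes read 7.11 to 7.40 for C1r and 6.93 to 7.42 for C1s.

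Cd55, which protects host cells from complement, read -1.82 and -1.76 on testosterone and control replicate 1 and -1.33 and -1.18 on replicate 2. The numbers did not overlap and differed by 0.53 (1.45-fold, within-number SD 0.08; chromosome 13, 43336846 to 43336905), or by 0.33 with median scaling.

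Among the 8 measurable genes, 4 stood higher and 3 lower on both arrays numbered 2 than on both numbered 1, and 1 overlapped. Over all 25915 tested probes the same was true of 36.8% and 26.7%, and at least 2-fold steps without overlap were found for 4.12% upward and 0.945% downward. The members were picked on this contrast, so nothing is read from their count. The median difference over all tested probes was 0.06, and -0.14 when arrays were scaled to their median instead.

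The design asks whether testosterone changed these genes, and no member passed that test. In limma, with Benjamini-Hochberg adjustment over all 25915 tested probes, 0 probes were called higher (0%) and 0 lower (0%), with 1.00 as the smallest adjusted p. Before adjustment 208 probes (0.803%) had a p under 0.05 in limma, and 0 of the 12 member probes were among them. An exact permutation test of 2 against 2 arrays cannot give a p under 0.333. Treated and control arrays were fully apart, with testosterone higher, for 6.12% of all probes, and with testosterone lower for 8.93%. For each of the 8 measurable members the groups overlapped (0 apart in either direction).

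C3 averaged 5.31 ± 2.58 (SD, n = 2) in treated and 5.16 ± 2.26 (SD, n = 2) in control cells. The difference was 0.15 with a 95% interval from -4.19 to 4.50. Testosterone minus control was -0.08 between the arrays numbered 1 and 0.38 between those numbered 2. Cfb averaged 4.90 ± 1.58 and 4.91 ± 1.22 (SD, n = 2), which differ by -0.01 (-2.57 to 2.55), with -0.27 for number 1 and 0.25 for number 2. For both genes the sign turned between the numbers. Each group holds 1 array of each number, so its SD and these intervals include the number difference. With the replicate number added to the limma fit, the interval was -0.36 to 0.67 for C3 and -0.55 to 0.53 for Cfb. No label ties a number to a shared culture.

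The C1q chains had small negative differences within both numbers. C1qb averaged 2.24 ± 0.81 (SD, n = 2) in treated and 2.44 ± 0.82 (SD, n = 2) in control cells. The difference was -0.21 (-1.74 to 1.32), and it was -0.22 for number 1 and -0.20 for number 2. C1qc differed by -0.14 (-1.53 to 1.26), with -0.06 and -0.21. C1qa differed by -0.09 (-1.48 to 1.30), with -0.04 and -0.14. The second C1qc probe gave 0.03, with 0.06 for number 1, so the sign was not the same over all probes. Median scaling lowers the testosterone difference of every probe measured on all 4 arrays by 1 constant, for C3 from 0.15 to 0.09. That step exceeds 0.03, so the sign of this probe depends on the scaling.

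The remaining members lay near 0 as well. C2 differed by -0.05 (-0.94 to 0.83), the unsaturated C1s probe by -0.05 (-0.58 to 0.47) and Cd55 by -0.10 (-0.93 to 0.72). Over the 8 genes 7 differences were negative and 1 positive, with a median of -0.07 beside -0.01 over all tested probes. The intervals reach 0.52 on the log2 scale to either side of the estimated difference for C1s and 4.35 for C3. They leave room for changes in both directions, so the absence of a call does not show equal levels.

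**Figure D2:**
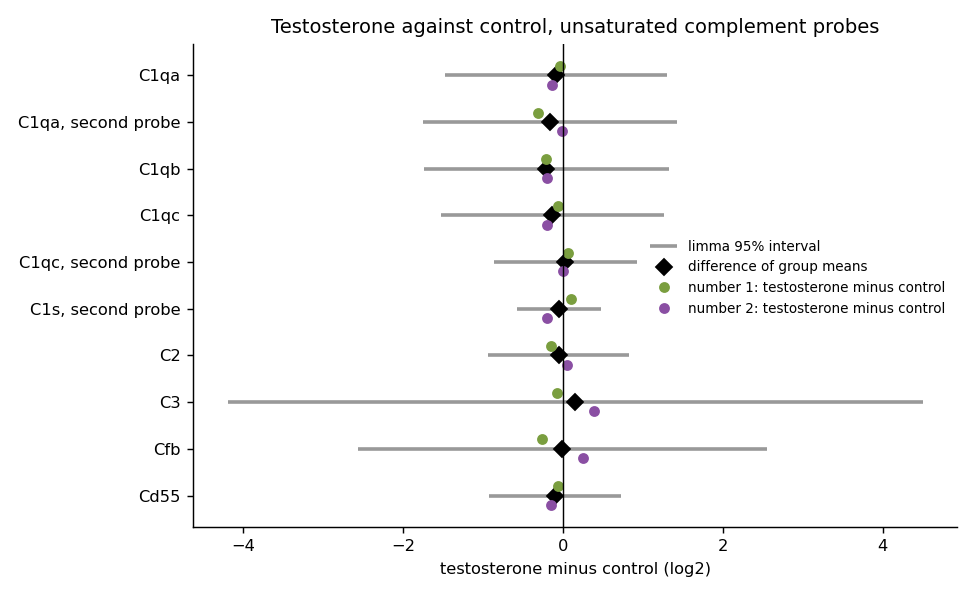
Testosterone minus control on the log2 scale (horizontal axis) for the 10 unsaturated complement probes (vertical axis). Diamonds are differences of group means, grey bars the limma 95% intervals, and green and purple points the differences between arrays numbered 1 and numbered 2; every interval spans 0, from -4.19 to 4.50 for C3.

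Of the other complement genes 47 had been listed, 38 were on the array under those or older names, and 23 were tested. Of these 23, 7 had a positive and 16 a negative testosterone difference, 0 passed the test in either direction, and the median was -0.07. By array number 12 stood higher and 11 lower on number 2, 10 and 8 of them without overlap, beside 36.8% and 26.7% of all tested probes. The median of 0.01 became -0.19 with median scaling and -0.09 with normexp and quantile normalization, and was -0.01 without control replicate 1 and -0.05 without testosterone replicate 1. The 23 include the saturated Serping1, and without it the median by number was -0.05.

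In the classical and lectin pathways 3 of 8 genes on the array were tested, and 0 of the 3 passed. Fcnb, a ficolin that recognises microbial sugars, differed by -0.21 with testosterone and by -0.50 between numbers 2 and 1. C4a, the C4 protein that C1s cuts, was chosen after its values were seen. It read 5.88 and 5.95 on testosterone and control replicate 1 and 5.67 and 5.62 on replicate 2, so it too was lower on number 2, by -0.27. The lectins Mbl1, Mbl2 and Colec10 and the protease Masp2 were well above background on 0 of 4 arrays.

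In the alternative pathway Cfd and Cfp, which activate and stabilise the convertase that Cfb enters, went the opposite way to Cfb. Cfd, factor D, read 4.99 and 5.24 on testosterone and control replicate 1 and 4.48 and 4.68 on replicate 2. Its number difference was -0.54 and its testosterone difference -0.22. Cfp, properdin, read -2.50 and -2.37 on replicate 1 and -3.16 and -3.19 on replicate 2, a number difference of -0.74. Both were thus lower on number 2, where C3 and Cfb were higher.

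Of the terminal components C6 and C8g were tested. C6, part of the membrane attack complex, read 2.80 and 2.57 with testosterone and 2.86 on both control arrays. Its testosterone difference was -0.17, with groups apart, and it did not pass the test. C5, C8a and C9 were well above background on 0 of 4 arrays.

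Among tested regulators C4bpb, a chain of the C4b-binding protein, had the largest testosterone difference, 0.35, at a dim level of -4.13 and -4.16 with testosterone and -4.22 and -4.76 in control. Clu, clusterin, read 2.13 and 2.36 on testosterone and control replicate 1 and 3.09 and 3.01 on replicate 2, a number difference of 0.80. Serping1, the C1 inhibitor, was saturated on all 4 arrays.

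Among tested receptors Cd93, first described as a C1q receptor, had the largest differences of both kinds. It read -1.40 and 0.02 with testosterone and -0.92 and 0.54 in control, which gives -0.50 for testosterone and 1.44 for the number. C3ar1, the receptor of the C3a fragment, was chosen after its values were seen. It read -2.84 and -2.75 on testosterone and control replicate 1 and -1.42 and -1.34 on replicate 2, a difference of 1.42 in the direction of C3.

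**Figure D3:**
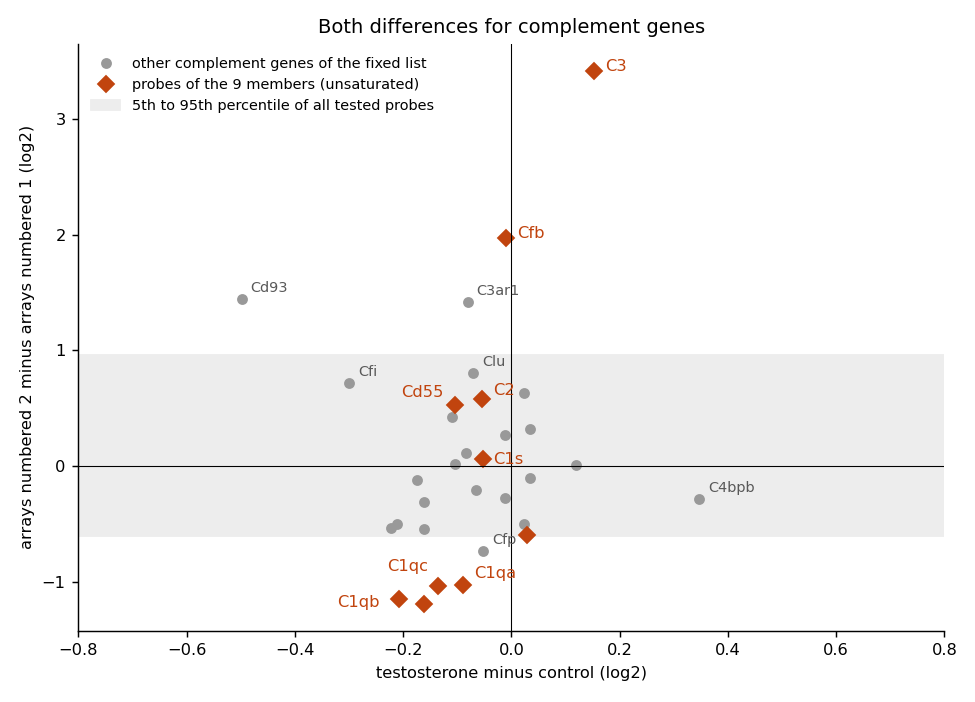
Difference between arrays numbered 2 and 1 (vertical axis, log2) against testosterone minus control (horizontal axis, log2), for the unsaturated probes of the members (diamonds) and the 22 tested and unsaturated other complement genes (grey points). The grey band holds the 5th to 95th percentile of all tested probes by number, -0.61 to 0.96; C3 and Cfb lie above it, the C1q chains below it except the second C1qc probe, and all member probes lie within 0.21 of 0 on the testosterone axis.

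Marker and response lists were read beside the members. Of 14 tested macrophage markers 9 stood higher and 5 lower on number 2, 7 and 5 without overlap, beside 36.8% and 26.7% of all tested probes. The median was 0.26, and it was 0.06 with median scaling, 0.15 with normexp and quantile normalization and 0.15 without testosterone replicate 1. The 5 lower ones were Cd68 (-0.52), Tyrobp (-0.53), Csf1r (-0.50), Ctss (-0.44) and Lyz2 (-0.46), and the higher ones included Adgre1 (1.00) and Aif1 (0.62). Their signals, summed over the 15 genes on the array and in units of the 75th percentile signal, were 206 and 213 on testosterone and control replicate 1 and 170 and 177 on replicate 2. By treatment the sums were 170 to 206 with testosterone and 177 to 213 in control. Cd68 and Tyrobp, the 2 brightest of the 15, made up 125 of the 206 on testosterone replicate 1. Without these 2 the sums were 81.1 and 67.2 on testosterone and control replicate 1 and 78.1 and 80.9 on replicate 2, and the numbers overlapped. The 67.2 includes Laptm5 in column 80, among the columns where control replicate 1 had its dropped spots. Laptm5 read 4.72 and 3.47 on testosterone and control replicate 1 and 4.36 and 4.45 on replicate 2. No sum without Laptm5 was made, so nothing is read from the overlap of the numbers in these smaller sums. Cx3cr1 was well above background on 0 of 4 arrays. The C1q chains were lower on number 2 like 5 of the 14 macrophage markers, by more than any of those 5 markers, and the part of macrophage number in the C1q difference was not tested.

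Most NF-kB and acute phase genes stood higher on number 2, as C3 and Cfb did. Of 16 tested genes 14 stood higher on number 2, 13 without overlap beside 36.8% of all tested probes, with a median of 0.66. Among the 16, Ccl2 and Vcam1 were saturated on all 4 arrays, and leaving both out, a choice made after seeing the data, gave 12 of 14 and a median of 0.96. The median of the 16 was 0.46 with median scaling and 0.20 with normexp and quantile normalization. Lcn2, an acute phase protein, differed by 2.23, Cxcl2 by 2.09, Il1b, a cytokine, by 1.95 and Il6 by 1.61. The part of these genes in the C3 and Cfb differences was not tested. The summed signal of the 14 unsaturated genes was 174 and 164 on testosterone and control replicate 1 and 232 and 225 on replicate 2. Of 14 interferon response genes 12 were higher and 2 lower on number 2, 10 and 1 without overlap, beside 36.8% and 26.7% of all tested probes. The median was 0.32 (0.12 with median scaling, 0.17 with normexp and quantile normalization), and Isg15 stood at 1.04. B2m was saturated on all 4 arrays and Psmb9 on 2. Without both, 10 of 12 were higher, with a median of 0.32. By testosterone 15 of the 16 NF-kB genes had a positive and 9 of the 14 interferon genes a negative difference, with medians of 0.09 and -0.04 and 0 called in either list. These counts by sign hold for the main scaling only. Under the alternatives with all 4 arrays the medians ran from 0.02 to 0.09 and from -0.11 to -0.04. With 1 array left out they ran from -0.29 to 0.42 and from -0.16 to 0.19.

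Some markers of other cells also stood apart by number. Msln, mesothelin, a marker of mesothelium, read -4.91 and -4.53 on testosterone and control replicate 1 and -0.62 and -0.60 on replicate 2, a difference of 4.11. Of 9 tested fibroblast and mesothelial genes 7 stood higher on number 2, with a median of 0.76. It was 0.56 with median scaling, 0.26 with normexp and quantile normalization, 0.49 without columns 57 to 85, 0.38 without control replicate 1 and 0.36 without testosterone replicate 2. Leaving out the 3 saturated on some or all arrays gave 4 of 6 and a median of 1.24. The summed signal of the unsaturated genes on the array was 98.6 and 109 on testosterone and control replicate 1 and 103 and 111 on replicate 2, so these sums overlapped between the numbers. The sperm nuclear proteins Tnp1, Tnp2 and Prm1 stood 4.70, 4.86 and 2.87 higher, and the germ cell list summed to 0.51 and 0.44 on replicate 1 and 5.86 and 5.93 on replicate 2. Ddx4, the other tested germ cell gene, lies in column 78 and overlapped between the numbers. Ddx4 read -2.56 and -7.59 on testosterone and control replicate 1 and -3.83 and -3.96 on replicate 2. The -7.59 lay more than 3 log2 units below the other arrays, as the dropped spots of that array did. Nothing is thus read from this overlap. Of 6 plasma protein genes of the liver 0 were tested, and 4, Alb and Fga among them, were well above background on 0 of 4 arrays. Sertoli cell markers had 3 of 6 and Leydig cell markers 1 of 5 higher on number 2, and endothelial markers 2 of 3. Smooth muscle markers had 6 of 9 higher, with a median of 0.24 that was 0.04 with median scaling and 0.10 with normexp and quantile normalization. The part of these cells in the complement differences was not tested.

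**Figure D4:**
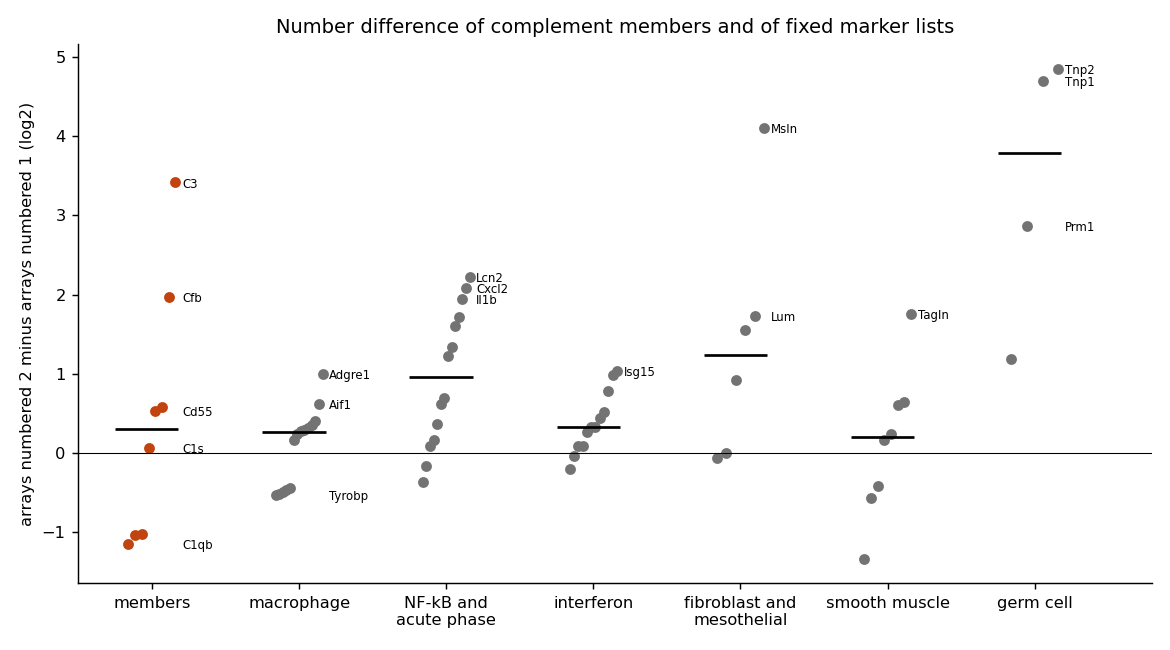
Difference between arrays numbered 2 and 1 (vertical axis, log2) for the 8 measurable complement members and the tested, unsaturated genes of 6 fixed lists (horizontal axis); points are genes and bars list medians. C3 and Cfb lie among the highest NF-kB and acute phase genes or above them, and the C1q chains lie below every macrophage marker.

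Profiles most like those of C3 and C1qb were sought among 8422 named genes that were detected without saturation on every array, by the root mean square distance of centred log2 values over the 4 arrays. The nearest to C3 were Ccl12, a chemokine (distance 0.10), Fabp9, a fatty acid-binding protein of testis (0.18), and Ddah1 (0.21), which differed between the numbers by 3.28, 3.59 and 3.02. Within a distance of 0.2 of C3 there were 2 genes. Among the nearest to C1qb were Nrcam, a neuronal cell adhesion molecule (0.04), and Klf2, a transcription factor (0.05), with 151 genes within 0.2. With 4 arrays such likeness describes these arrays only.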

How the data were processed

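Per the labels' protocols, cRNA carrying Cy3 was made from oligo-dT-primed total RNA and read on 1-colour Agilent rat arrays. Per the file headers, the deposited scanner files come from Feature Extraction 11.5.1.1 (10.5 in the submitters' processing notes) and hold, as linear intensity values, a processed signal, a mean and a background for every spot, with probe positions in build rn4. The authors' deposited table holds log2 values. Over 40749 probes printed once, the deposited log2 values differed from the log2 processed signals of the same array by 1 constant (8.79, 8.63, 8.38 and 8.55 for testosterone and control replicate 1 and testosterone and control replicate 2). Genes were thus not centred and no sign was turned. Its column medians were -3.61, -3.62, -3.34 and -3.45.

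Here log2 processed signals minus the 75th percentile were used. Control and outlier spots were left out and spots of a probe averaged. Probes well above background on both arrays of a group were tested (25915, of which 34 lacked a value on some array) with limma 3.58.1 in R 4.3.3, without covariates, over the 2 testosterone and 2 control arrays. The fit was tested on simulated data. Between 62.9% and 67.7% of probes were well above background per array, and precision is limited by having 4 arrays. Genes are given by their brightest probe, except that saturated probes were set aside after the data were seen. Other complement genes are named by the largest differences per role. List genes were matched through RefSeq names and accessions (GRCr8). The set of motifs searched and the definition of dropped spots were also chosen after the data were seen. The list counts cover all tested genes, and counts without saturated ones were added later. The members and lists were chosen with earlier results of these data known. One gene that the rule for like profiles selects is not reported here.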

Additional observations from a re-analysis of the deposited data

How the results depend on the processing

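With all 4 arrays kept, limma called 0 probes, 0 members and 0 genes of the lists under every alternative, also with the brightest unsaturated probe per gene, which was chosen after seeing the data. With the replicate number as a block 740 probes had an unadjusted p under 0.05, against 208 without it, and 0 were called. Arrays sharing a number deviated together (correlation 0.473), but no label ties a number to a shared culture, so the numbers were not taken to pair the samples. Under the block the differences of the 8 members were as before, their intervals reached 0.40 to 0.54 to either side, and the smallest unadjusted p was 0.222 (C1qb, adjusted p = 1.00 in limma). Leaving out 1 array gave 0 to 48 probes higher and 0 to 3 lower. The 48 and the 3 arose without control replicate 2, 49 of these 51 lay in columns 57 to 85, and 0 were members. With 1 array left in a group it was assumed to vary like the other pair.

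By number, C3 differed by 3.22 with median scaling, and C1qa, C1qb and C1qc by -1.23, -1.35 and -1.23. With normexp and quantile normalization C1qa gave -1.15 and C1qc -0.92. Median scaling moves all probes by a constant per array, and for normexp the cause was not tested. Leaving out 1 array gave 3.23 to 3.61 for C3, -1.10 to -0.96 for C1qa, -1.26 to -1.04 for C1qb and -1.14 to -0.93 for C1qc. For the brightest unsaturated probe of each gene, the testosterone differences kept their sign under the alternatives with all 4 arrays that gave a value. C1s has none with the brightest probe per gene, since that probe is saturated. With 1 array left out the testosterone differences ran from -1.67 to 1.98 for C3 and -1.13 to 1.11 for Cfb. They ran from -0.63 to 0.45 for C1qa, -0.79 to 0.37 for C1qb and -0.69 to 0.42 for C1qc. The ranges were -0.39 to 0.29 for C2, -0.16 to 0.054 for C1s and -0.39 to 0.18 for Cd55. Such fits leave the numbers unbalanced, and the part of this in each range was not tested. Cfb and Cd55 have no value without columns 57 to 85.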
